A study of Mus musculus with 4 samples.

Results

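The 37 genes of the mouse mitochondrial chromosome (chrM) were described in testes of Dis3 conditional knockout mice (KO) and control mice (WT). They are every row of the gene table that lies on chrM, 37 of 54232 genes: 13 mRNA genes, 2 rRNA genes and 22 tRNA genes, with 28 genes on the plus strand and 9 on the minus strand. The 2 KO libraries are labelled Dis3 KO and the 2 WT libraries Dis3 WT, and all 4 were made from whole testis of B6D2F1 mice at postnatal day 17. The Cre driver, the cells in which Dis3 was deleted, the control genotype beyond its label and any pooling of animals are not stated. Nothing says that the 2 libraries of a group came from separate mice, so each p-value reflects only how far these libraries spread, which may be technical.

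DIS3 is a ribonuclease of the nuclear RNA exosome, which trims and destroys RNA in the nucleus. RNA made inside mitochondria is handled by other enzymes. Mitochondrial DNA is copied by its own RNA polymerase into long transcripts that run over many genes, and the tRNAs between the genes are cut out and so release the mRNAs and rRNAs. Genes on the plus strand of the reference come from the transcript of the heavy strand. The minus strand holds mt-Nd6 and 8 tRNA genes, which come from the transcript of the light strand. The mRNAs code for core subunits of respiratory complexes I, III and IV and of ATP synthase, and all other subunits are made from nuclear genes.

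The libraries held 17663416 and 19255782 gene reads in KO, against 31031920 and 40329170 in WT, so WT values rest on more reads. Dis3 itself, on chromosome 14 (99075206 to 99099770, GRCm38), had 39.6 and 42.9 CPM in KO (reads scaled to a common library size, adjusted by TMM) and 80.2 and 80.7 in WT, a log2 fold change of -0.96 ± 0.0729 (SE, edgeR's quasi-likelihood test, Benjamini-Hochberg adjusted p = 2.34e-09). Marker genes of germ cells summed to 4179 and 4045 CPM in KO and 5807 and 5911 CPM in WT, with 8 of 10 lower. Over all tested genes, 20.3% were lower and 11.6% higher. Macrophage markers summed to 230 and 223 CPM in KO and 131 and 131 CPM in WT, with 8 of 8 higher, and 4 of 9 Sertoli markers were higher and 0 lower. In whole-tissue RNA, fewer cells of a type and less RNA per cell cannot be told apart. The part of the cell mixture in the mitochondrial values was not tested.

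Mitochondrial genes touch, overlap and have near-identical copies in the nuclear genome, and 3 sets of sequences show where this bears on the counts (GRCm38, 5′ to 3′ on the strand of each gene, from GENCODE transcripts). The first set is shown because its capitals mark bases that differ between mt-Co1 and its nuclear copies, so that lower-case stretches cannot be assigned to one locus; it comes from chrM:6381-6470, chr1:24616108-24616197 and chr2:22588505-22588594.
mt-Co1 window: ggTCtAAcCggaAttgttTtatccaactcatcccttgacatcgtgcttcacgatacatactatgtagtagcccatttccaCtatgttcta
Gm29216: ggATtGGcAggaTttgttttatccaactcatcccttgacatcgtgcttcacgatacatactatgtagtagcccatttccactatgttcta
Gm13340: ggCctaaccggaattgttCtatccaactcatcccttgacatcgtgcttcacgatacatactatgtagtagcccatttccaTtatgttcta
Gm29216 is a pseudogene of 492 bases that lines up with the end of mt-Co1, and it differed from mt-Co1 at 6 bases, all within its first 13. Gm13340 differed in this window by T1056C, T1072C and C1134T, counted from 1 at the 5′ end of mt-Co1.

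The second set shows the places where mRNA genes share bases. Capitals in the first line mark the 43 bases that belong to both mt-Atp8 and mt-Atp6 (chrM:7907-7989, plus strand). Capitals in the other two mark the 14 bases in which the ends of mt-Nd5 (chrM:13526-13565, plus strand) and mt-Nd6 (chrM:13552-13591, minus strand) face each other on opposite strands.
mt-Atp8 and mt-Atp6 overlap: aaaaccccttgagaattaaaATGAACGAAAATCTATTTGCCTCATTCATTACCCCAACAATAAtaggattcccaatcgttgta
mt-Nd5 end: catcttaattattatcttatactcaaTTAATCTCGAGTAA
mt-Nd6 end: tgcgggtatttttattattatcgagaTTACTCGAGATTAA

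The third set gives the tRNA genes at both ends of the range of reads, with the anticodon in capitals: mt-Tl1, the leucine tRNA between mt-Rnr2 and mt-Nd1 (chrM:2676-2750, plus strand), and mt-Ty, the tyrosine tRNA (chrM:5260-5326, minus strand).
mt-Tl1: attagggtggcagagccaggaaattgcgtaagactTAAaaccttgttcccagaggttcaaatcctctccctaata
mt-Ty: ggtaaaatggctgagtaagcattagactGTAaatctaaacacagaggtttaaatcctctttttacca

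Per length, the counted reads of the mRNA and rRNA genes covered a range from 17.9 CPM per kilobase for mt-Nd3 to 7525 for mt-Cytb (means of 4 libraries). mt-Cytb, the cytochrome b subunit of complex III, was followed by the complex I subunit mt-Nd1 at 5998, mt-Nd2 at 4530, mt-Co1 at 4509 and mt-Nd5 at 3459. mt-Co1 codes for the catalytic subunit of complex IV, and mt-Nd2 and mt-Nd5 for membrane subunits of complex I. The 12S rRNA gene mt-Rnr1 stood at 2379 and the 16S rRNA gene mt-Rnr2 at 1674 CPM per kilobase, in libraries from which targeted transcripts had been depleted; which transcripts were targeted is not stated. Below them came mt-Nd6 at 1106 and mt-Nd4 at 1030, and then mt-Atp8, mt-Nd4l, mt-Atp6, mt-Co2, mt-Co3 and mt-Nd3 at 214 or less.

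**Figure D1:**
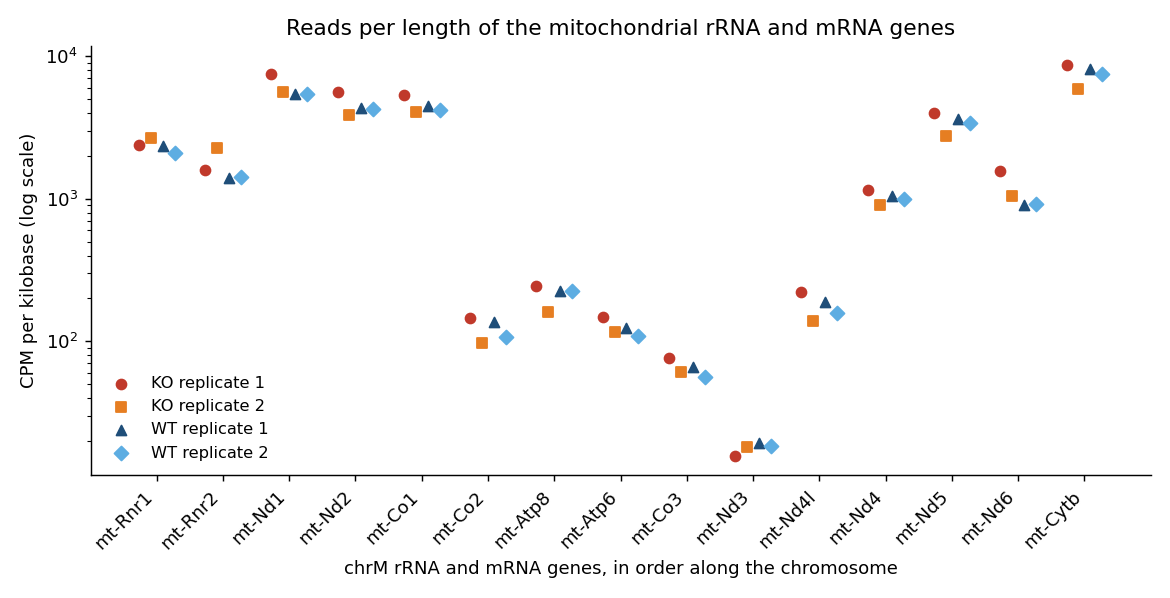
Reads per kilobase (CPM per kilobase, log scale) of the 15 mRNA and rRNA genes in the order in which they lie on chrM, 1 point per library, KO left of WT. mt-Co2, mt-Atp8, mt-Atp6, mt-Co3, mt-Nd3 and mt-Nd4l lie far below the other genes in all 4 libraries.

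The low genes other than mt-Atp8 were those with nuclear copies along nearly their whole length. Of the 50-base windows of mt-Co2, 100% occurred unchanged in a nuclear transcript of the annotation, and the values were 99.9% for mt-Co3, 99.5% for mt-Atp6, 98.8% for mt-Nd4l and 98.0% for mt-Nd3. Windows of mt-Nd4 matched at 62.2%, of mt-Co1 at 51.1%, of mt-Nd2 at 8.19%, of mt-Nd5 at 7.61% and of mt-Rnr2 at 1.04%. No window of mt-Nd1, mt-Nd6, mt-Cytb, mt-Atp8, mt-Rnr1 or any tRNA gene matched an annotated nuclear transcript. Nuclear sequence outside annotated transcripts was not searched for any gene. No option to count reads that map to several places is recorded with the counts, and without it such reads are left out. By that rule, a read that lies wholly within matching sequence is counted for neither locus. Still, mt-Co2 had 1809 and 1380 reads in KO and 2766 and 2804 in WT. Its copy Gm28661, identical over 681 aligned bases, had 42 and 31 reads in KO and 39 and 37 in WT. The part of the copies in the low counts was not tested. mt-Atp8 was low without an annotated copy; on chromosome 1 the copies of its neighbours mt-Co2 and mt-Atp6 lie 233 bases apart, against 230 bases on chrM, and that gap, which no reference sequence here covers, was not searched.

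**Figure D2:**
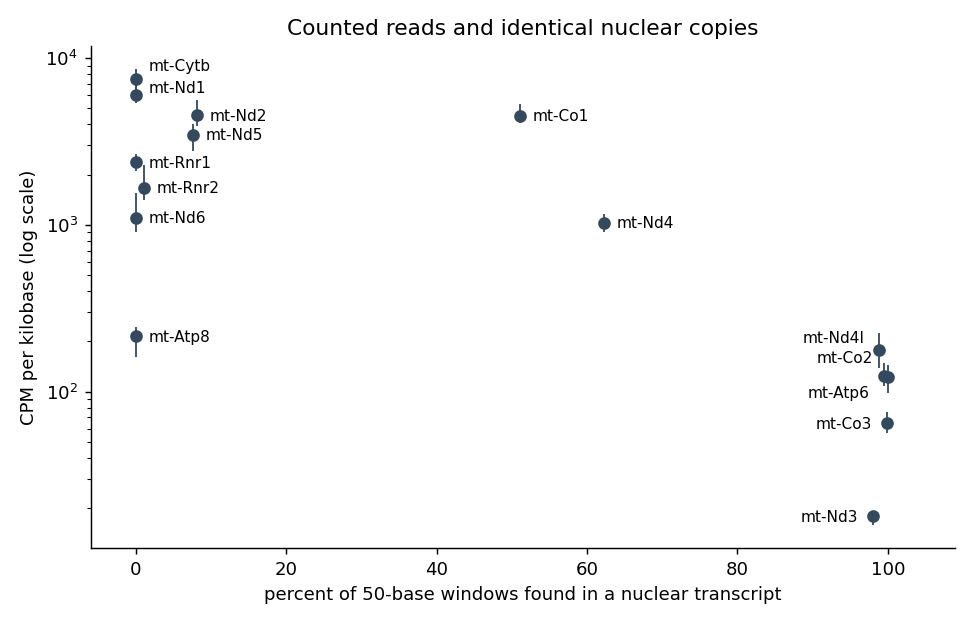
Mean CPM per kilobase (log scale; bars from the lowest to the highest of 4 libraries) of the 15 mRNA and rRNA genes against the percent of their 50-base windows found in a nuclear transcript. The 5 genes at 98.0% to 100% lie at 17.9 to 177 CPM per kilobase, and mt-Atp8, at 0%, lies at 214.

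The copies stood mostly in one block. Chromosome 1 holds 7 pseudogenes side by side on the minus strand over 4663 bases (chr1:24611535-24616197), with copies of the end of mt-Co1 and of mt-Co2, mt-Atp6, mt-Co3, mt-Nd3, mt-Nd4l and part of mt-Nd4. Over their full length, Gm28438 differed from mt-Nd3 at 1 of 345 bases and Gm29216 from mt-Co1 at the 6 bases named above. The aligned bases of the other copies in the block did not differ from chrM at any position. A second group on chromosome 2 (Gm13339, Gm13340 and Gm13341) resembled mt-Nd2, mt-Co1 and mt-Co2 at 96.7% to 97.6% of aligned bases. Of 15 nuclear genes with a matching window, 14 were in the count table, 12 were tested, and 0 were higher or lower in KO. Gm13340 had most reads of them, 224 and 145 in KO and 260 and 213 in WT, Gm28438, the mt-Nd3 copy, had 102 and 106 in KO and 149 and 213 in WT, and mt-Nd3 itself had 100 and 130 in KO and 199 and 243 in WT. Gm10925, the mt-Atp6 copy, had 45 and 45 reads in KO and 71 and 85 in WT, and Gm28439, the mt-Nd4 copy, had 29 and 29 in KO and 64 and 88 in WT.

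When the reads of each mRNA gene were divided by its windows without a nuclear match, mt-Co1 came close to or above mt-Cytb. With windows of 50 bases, mt-Co1 had 9531 CPM per 1000 such windows, mt-Cytb 7861, mt-Nd1 6322, mt-Nd2 5179, mt-Nd5 3847, mt-Nd4 2827, mt-Nd6 1221 and mt-Atp8 282. With windows of 75 bases mt-Cytb had 8045 and mt-Co1 7872, and with windows of 100 bases mt-Cytb had 8238 and mt-Co1 6967, so their order depends on the window, and the read length is not stated. The remaining mRNA genes had too few such windows for a value.

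Mitochondrial genes took 4.77% and 3.83% of all gene reads in the KO libraries, against 3.74% and 3.51% in the WT libraries, or 4.30% ± 0.67 in KO and 3.63% ± 0.162 in WT (SD, n = 2 each). The groups did not overlap, and the two-sided exact permutation p was 0.333, the smallest that the 6 ways to label 2 against 2 libraries allow; the same floor holds for every exact p below. The difference of 0.673 percentage points was 0.199 without KO replicate 1 and 1.15 without KO replicate 2, and over the chrM genes with no nuclear match it was 0.275, where the groups overlapped (exact permutation p = 0.667). The mRNA genes took 4.27% and 3.16% in KO and 3.30% and 3.10% in WT, so the groups overlapped, with KO replicate 2 inside the WT range. The rRNA genes took 0.494% and 0.656% in KO and 0.427% and 0.402% in WT, without overlap (exact permutation p = 0.333). The tRNA genes took 0.0112% and 0.0107% in KO and 0.0100% and 0.00908% in WT, also without overlap (exact permutation p = 0.333). These shares use unscaled totals, and the TMM factors were 1.04 and 1.07 in KO and 0.955 and 0.942 in WT. On the TMM-scaled library sizes, the groups overlapped for all chrM genes together and for the tRNA genes, but not for the rRNA genes.

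Of the 37 genes, 27 had enough reads for the test: 13 mRNA, 2 rRNA and 12 tRNA genes. None of them passed, with 0 higher and 0 lower in KO by edgeR's quasi-likelihood test at an adjusted p of 0.05, and likewise 0 and 0 by DESeq2. Over all 25076 tested genes of the table, 11.6% were higher and 20.3% lower in KO. DESeq2 called 4.31% of all genes higher and 16.7% lower. At an unadjusted p under 0.05, edgeR named 2 mitochondrial genes, where it named 43.4% of all genes, and DESeq2 named 1, where it named 31.2% of all genes. The median log2 fold change was 0.08 over the 27 genes and 0.05 over all tested genes. Over the tested genes with an average log2 CPM of 5 or more the median was -0.18.

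The KO libraries differed from each other at chrM genes. The median absolute log2 ratio of KO replicate 1 to KO replicate 2 was 0.52 over the 15 mRNA and rRNA genes, and that of WT replicate 1 to WT replicate 2 was 0.08. Over 6795 nuclear genes with an average log2 CPM of 5 or more, the same medians were 0.0767 in KO and 0.0582 in WT. In KO, 13 of the 15 exceeded the 95th percentile of those nuclear genes (0.255), and in WT 3 of the 15 exceeded theirs (0.185). Most mRNAs were higher in KO replicate 1 than in KO replicate 2, with log2 ratios of 0.32 to 0.69 for the 12 other than mt-Nd3, which had -0.20. Both rRNAs ran the other way, with -0.16 for mt-Rnr1 and -0.52 for mt-Rnr2.

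**Figure D3:**
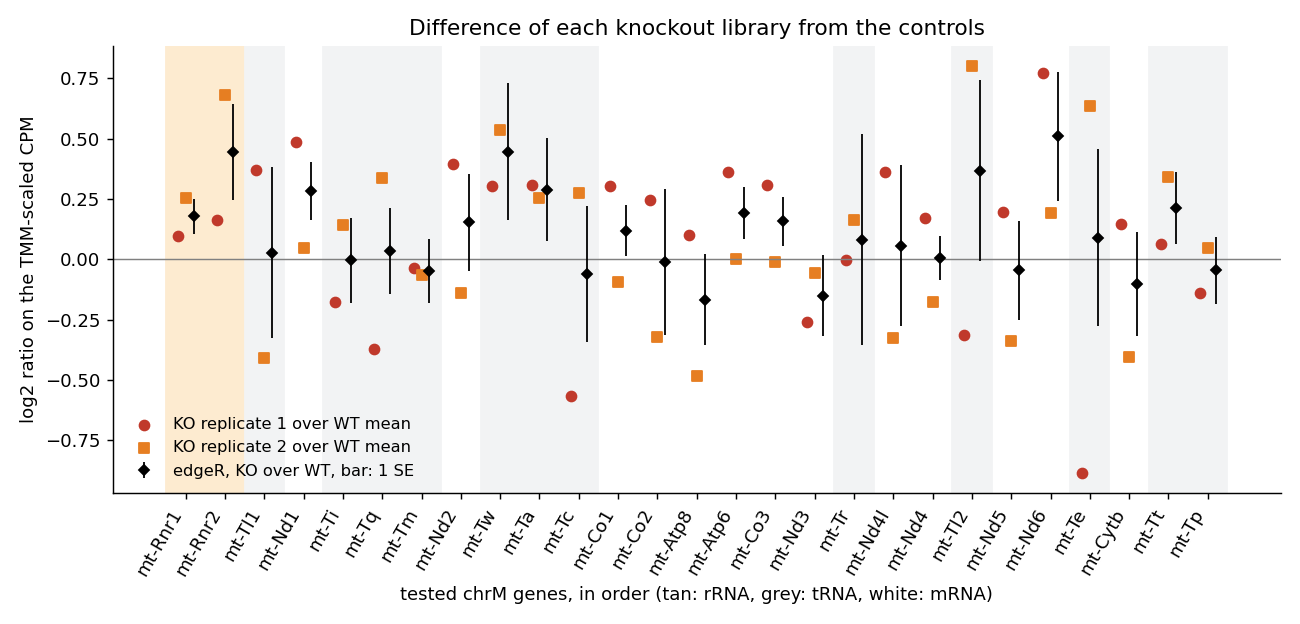
Log2 ratio of each KO library to the WT mean for the 27 tested genes in chrM order (circles, KO replicate 1; squares, KO replicate 2), with the fitted log2 fold change and its SE (diamonds). The KO libraries lie on opposite sides of 0 for many mRNA genes and on the same side for mt-Nd1, mt-Nd6 and both rRNA genes.

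Leaving out one or the other KO library gave calls in opposite directions. Without KO replicate 1, edgeR called 9 mitochondrial genes lower (mt-Tl1, mt-Nd2, mt-Co1, mt-Co2, mt-Atp8, mt-Nd4l, mt-Nd4, mt-Nd5 and mt-Cytb) and 3 higher (mt-Rnr1, mt-Rnr2 and mt-Nd6), where 17.7% of all genes were lower and 5.3% higher. Without KO replicate 2, it called 9 higher (mt-Tl1, mt-Nd1, mt-Nd2, mt-Co1, mt-Atp6, mt-Co3, mt-Nd4l, mt-Nd5 and mt-Nd6) and 1 lower (mt-Te), where 4.63% of all genes were higher and 18.4% lower. mt-Nd6 was called higher in both. In these fits the lone KO library is assumed to vary as the WT libraries do. Without WT replicate 1, 3 were higher (mt-Rnr2, mt-Tw and mt-Atp6) and 0 lower, where 9.19% of all genes were higher and 19.5% lower. Without WT replicate 2, 2 were higher (mt-Rnr2 and mt-Nd6) and 0 lower, where 5.79% of all genes were higher and 15.3% lower. The deviations of same-numbered libraries correlated at -0.00826 over all tested genes, so no effect shared by replicate number was seen there. This correlation was not computed for chrM genes alone. Most chrM mRNA genes were higher in replicate 1 than in replicate 2 in both groups, with mt-Cytb at log2 ratios of 0.55 in KO and 0.12 in WT. mt-Nd3 went the other way in KO (-0.20) and mt-Nd6 in WT (-0.0027). Whether libraries were handled in pairs is not stated.

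Among the complex I genes, mt-Nd1 had 7251 and 5350 CPM in KO, against 5187 and 5172 CPM in WT. Both KO libraries lay above both WT libraries, KO replicate 1 by far the most, and the log2 fold change was 0.28 ± 0.121 (SE, edgeR, adjusted p = 0.105). Without KO replicate 1 it was 0.024, the lowest of the fits without 1 library, and without KO replicate 2 it was 0.43, the highest. mt-Nd6, the one mRNA of the minus strand, had 808 and 540 CPM in KO, against 473 and 474 CPM in WT. Here too the groups did not overlap, and the log2 fold change was 0.51 ± 0.266 (edgeR, adjusted p = 0.291). It was 0.17 without KO replicate 1 and 0.72 without KO replicate 2, the lowest and the highest of these fits.

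mt-Nd2 had 5859 and 4045 CPM in KO, against 4476 and 4430 CPM in WT. mt-Nd5 had 7352 and 5067 CPM in KO, against 6580 and 6240 CPM in WT. mt-Nd4, another membrane subunit, had 1593 and 1252 CPM in KO, against 1446 and 1385 CPM in WT. In these 3 genes the KO libraries lay on both sides of the WT libraries, with log2 fold changes of 0.15, -0.046 and 0.0076 in the order given. The short subunit genes with nuclear copies stood at lower levels. mt-Nd4l had 66.4 and 41.1 CPM in KO and 56.5 and 46.6 CPM in WT. mt-Nd3 had 5.49 and 6.31 CPM in KO and 6.73 and 6.41 CPM in WT, the one mRNA gene whose KO libraries both lay under WT (edgeR, log2 fold change -0.15 ± 0.169, adjusted p = 0.518).

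mt-Cytb of complex III had 9874 and 6737 CPM in KO, against 9285 and 8537 CPM in WT. Its KO libraries stood above and below both WT libraries, and the log2 fold change was -0.10 ± 0.215 (edgeR, adjusted p = 0.767). Of complex IV, mt-Co1 had 8239 and 6267 CPM in KO, against 6909 and 6453 CPM in WT, with the same split and a log2 fold change of 0.12 ± 0.106 (edgeR, adjusted p = 0.416). mt-Co2, the subunit that takes electrons from cytochrome c, had 99.3 and 67.0 CPM in KO, against 93.6 and 73.9 CPM in WT. mt-Co3, the third core subunit, had 59.5 and 47.5 CPM in KO, against 51.9 and 44.0 CPM in WT. The groups overlapped in all 3 complex IV genes.

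Of the ATP synthase genes, mt-Atp6, a part of the proton channel, had 102 and 79.1 CPM in KO, against 84.0 and 73.9 CPM in WT. mt-Atp8 had 49.5 and 33.0 CPM in KO, against 46.2 and 46.1 CPM in WT. The groups overlapped in both. Any read that touches the 43 shared bases shown above lies on both genes and was counted for neither. The levels of mt-Atp8, a gene of 204 bases, were not corrected for this.

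At both of the 2 rRNA genes the KO libraries exceeded both WT libraries, as they did at 35.6% of all tested genes. Whether the rRNAs were targets of the depletion step is not stated. mt-Rnr1 had 2281 and 2542 CPM in KO, against 2258 and 2006 CPM in WT, with a log2 fold change of 0.18 ± 0.0724 (edgeR, unadjusted p = 0.0222, adjusted p = 0.0638). mt-Rnr2 had 2510 and 3595 CPM in KO, against 2220 and 2264 CPM in WT, with a log2 fold change of 0.45 ± 0.198 (edgeR, adjusted p = 0.188). Without KO replicate 2 the log2 fold change of mt-Rnr2 was 0.11, and without KO replicate 1 it was 0.66; for mt-Rnr1 the fits without 1 library gave 0.044 to 0.23. KO replicate 2 was the highest library for both. mt-Rnr2 reads per 100 mt-Rnr1 reads were 110 and 141 in KO and 98.3 and 113 in WT, so that ratio overlapped.

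Of the tRNA genes, mt-Tl1 had the most reads by far, 995 and 656 in KO and 1328 and 1502 in WT, or 54.6 and 31.9 CPM in KO and 44.9 and 39.6 CPM in WT. mt-Tm, the methionine tRNA, had 11.0 and 10.7 CPM in KO and 12.0 and 10.5 CPM in WT. mt-Tp, for proline, had 9.33 and 10.6 CPM in KO and 9.57 and 11.0 CPM in WT. All 3 overlapped between the groups. mt-Tt, for threonine, had 8.07 and 9.76 CPM in KO and 7.75 and 7.67 CPM in WT, and mt-Ta, for alanine, had 4.33 and 4.18 CPM in KO and 3.86 and 3.14 CPM in WT. In these 2 the KO libraries lay above WT, with edgeR log2 fold changes of 0.21 (adjusted p = 0.286) and 0.29 (adjusted p = 0.306). Without 1 library they ranged over 0.011 to 0.32 for mt-Tt, lowest without KO replicate 2, and 0.13 to 0.40 for mt-Ta, lowest without WT replicate 2.

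Other tested tRNA genes overlapped between the groups. mt-Tq, for glutamine, had 6.36 and 10.4 CPM in KO and 8.15 and 8.31 CPM in WT, and mt-Ti, for isoleucine, had 5.21 and 6.51 CPM in KO and 5.68 and 6.09 CPM in WT. mt-Te, for glutamate, had 1.81 and 5.20 CPM in KO and 3.42 and 3.27 CPM in WT, the widest gap between KO libraries among the tested genes (log2 ratio -1.52). mt-Tc, for cysteine, had 2.03 and 3.64 CPM in KO and 3.62 and 2.40 CPM in WT. mt-Tw, for tryptophan, had 2.69 and 3.16 CPM in KO and 2.77 and 1.58 CPM in WT. mt-Tl2, the other leucine tRNA, had 0.988 and 2.14 CPM in KO and 1.32 and 1.13 CPM in WT, and mt-Tr, for arginine, had 0.823 and 0.923 CPM in KO and 0.778 and 0.870 CPM in WT.

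The other 10 tRNA genes were not tested, and none of them had over 27 reads in a library, a count reached by mt-Ts2 in WT replicate 1. mt-Ty had 0 reads in all 4, which allows up to 0.165 CPM in the shallowest library and 0.0791 CPM in the deepest (3 reads each, on the TMM-scaled library sizes, counting error only). Of the 5 tRNA genes between mt-Co1 and mt-Nd4, mt-Tr had 15 to 33 reads and mt-Ts1, mt-Td, mt-Tk and mt-Tg had 3 or fewer. The mRNA genes of that stretch other than mt-Atp8 have annotated copies on chromosome 1. Counts as low were also seen outside it, with 0 or 1 reads for mt-Tf and mt-Tv and 0 or 2 for mt-Th. Mature tRNAs are short, and the size range kept by the library preparation is not stated. A read that runs from a tRNA gene into a neighbouring gene on the same strand was not counted. The tRNA values therefore cover only reads that stay clear of such neighbours.

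Counting members in another way, 6 of the 27 tested genes had both KO libraries above both WT libraries (mt-Rnr1, mt-Rnr2, mt-Nd1, mt-Nd6, mt-Ta and mt-Tt) and 1 had both below (mt-Nd3). Over all tested genes, 35.6% had both KO libraries above and 32.7% both below. In the other 20 mitochondrial genes the groups overlapped.

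Ratios within chrM do not depend on how libraries are scaled to each other. Reads on rRNA genes per 100 reads on mRNA genes were 11.6 and 20.8 in KO and 12.9 and 12.9 in WT, with the KO libraries on either side of WT. Reads on tRNA genes per 1000 on mRNA genes were 2.62 and 3.39 in KO and 3.03 and 2.93 in WT, again on either side. The exact permutation p was 1 for both ratios.

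The ratio of minus-strand to plus-strand reads, in contrast, did not overlap between the groups, though this rests mainly on mt-Nd6. In CPM, 35.6% of all tested genes did not overlap with KO above and 32.7% with KO below. Minus-strand reads per 100 plus-strand reads were 1.83 and 1.63 in KO and 1.29 and 1.36 in WT, or 1.73 ± 0.141 in KO and 1.33 ± 0.0489 in WT (SD, n = 2 each, exact permutation p = 0.333). Nearly all minus-strand reads were those of mt-Nd6, with 14733 and 11126 in KO and 13983 and 17973 in WT. Its reads per 100 reads of mt-Nd5, the plus-strand gene that it faces, were 11.0 and 10.7 in KO and 7.19 and 7.60 in WT, or 1.46 times as many in KO (exact permutation p = 0.333). The KO libraries, which differed in nearly all levels, lay close together in this ratio. Minus-strand tRNA reads per 100 plus-strand tRNA reads were 29.0 and 52.4 in KO and 37.8 and 41.7 in WT, with the KO libraries on either side of WT.

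**Figure D4:**
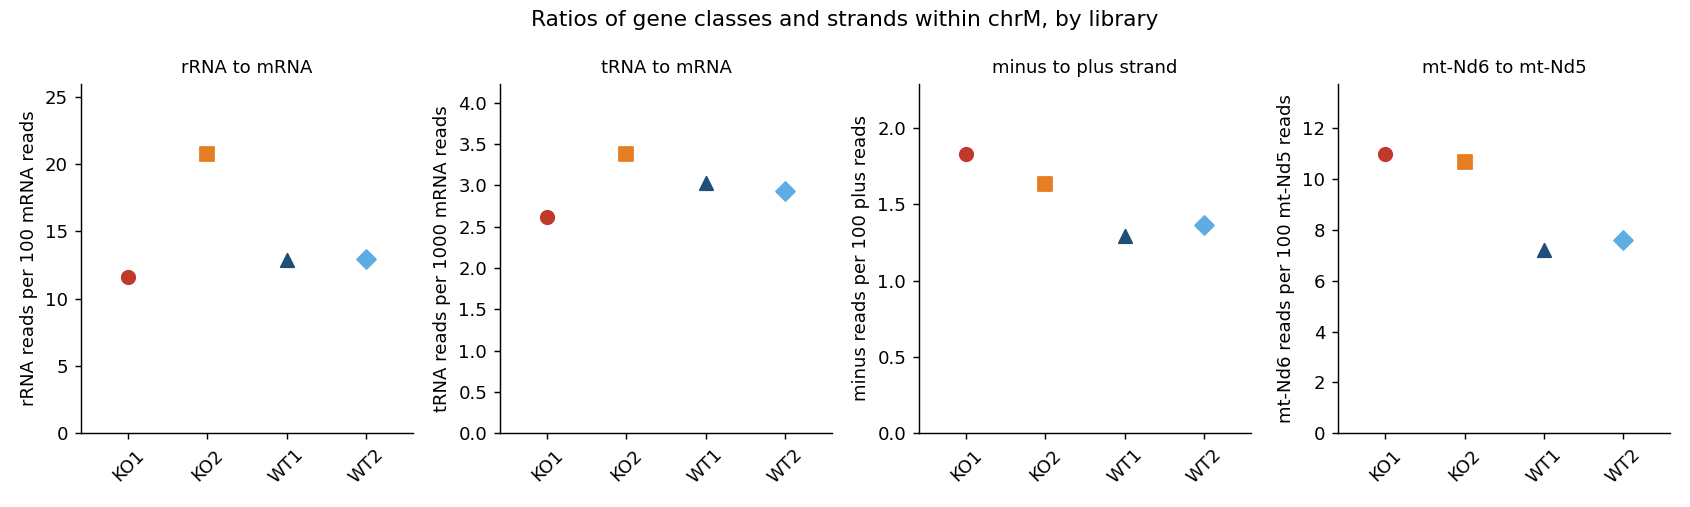
Ratios of reads within chrM in each library, with KO left of WT and every axis from 0: rRNA to mRNA, tRNA to mRNA, minus to plus strand, and mt-Nd6 to mt-Nd5. KO replicates 1 and 2 lie on either side of WT in the first and second plots and above WT in the others, where mt-Nd6 per 100 mt-Nd5 was 11.0 and 10.7 in KO and 7.19 and 7.60 in WT.

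Another measure of these libraries moved with genotype. Reads in the regions of 3000 bases upstream of nuclear genes, both strands together, came to 4.14% and 4.14% of gene reads in KO and 2.50% and 2.07% in WT. These regions do not include chrM. Whether that shift has a part in the mt-Nd6 ratio was not tested.

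The make-up of the mRNA reads was compared next. Of all mRNA reads of chrM, mt-Nd1 took 17.5% and 18.1% in KO and 15.0% and 15.7% in WT, mt-Nd2 14.2% and 13.7% in KO and 12.9% and 13.4% in WT, and mt-Nd6 1.95% and 1.83% in KO and 1.36% and 1.44% in WT. mt-Cytb took 23.9% and 22.8% in KO and 26.8% and 25.9% in WT, and mt-Nd5 17.8% and 17.2% in KO and 19.0% and 18.9% in WT. The shares of 8 of the 13 genes did not overlap, with 5 higher in KO (mt-Nd1, mt-Nd2, mt-Co1, mt-Atp6 and mt-Nd6) and 3 lower (mt-Atp8, mt-Nd5 and mt-Cytb), each at an exact permutation p of 0.333. In CPM, 35.6% of all tested genes did not overlap with KO above and 32.7% with KO below, so a count of 8 of 13 is near that background. With reads per kilobase, the shares of mt-Co1 and mt-Atp6 overlapped (exact permutation p = 0.667). For mt-Co1 the gap was narrow, with 19.92% and 21.2% in KO and 19.91% and 19.6% in WT. The shares sum to a whole, so a higher share of one gene lowers the others.

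**Figure D5:**
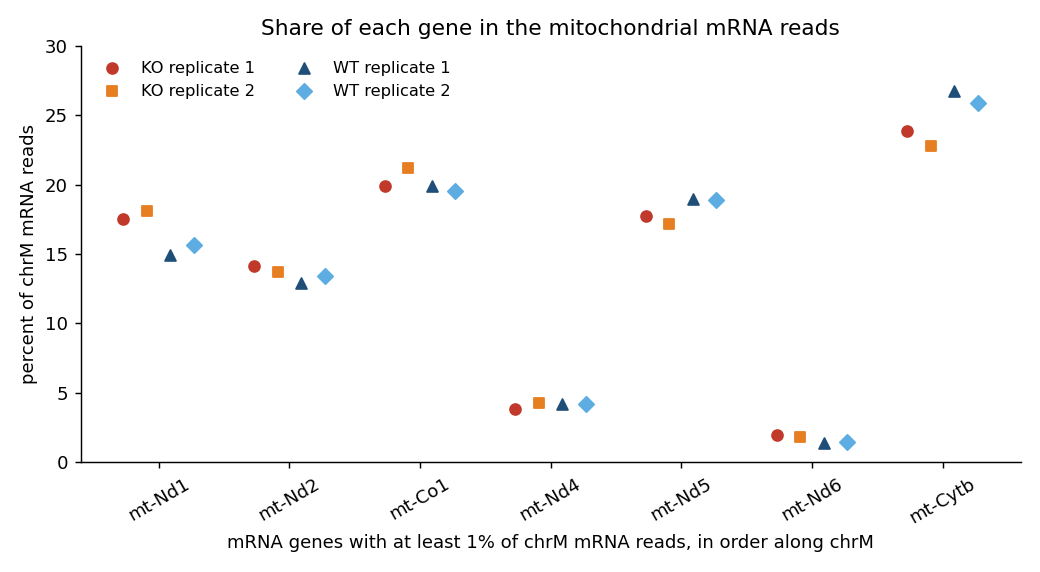
Percent of chrM mRNA reads taken by each mRNA gene with at least 1% in WT, in chrM order, 1 point per library with KO left of WT. mt-Nd1 lies at 17.5% and 18.1% in KO and 15.0% and 15.7% in WT, and mt-Cytb, at the far end, at 23.9% and 22.8% in KO and 26.8% and 25.9% in WT.

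Among plus-strand genes with few or no nuclear matches, the shares were higher in KO for mt-Nd1 and mt-Nd2, which lie near the start of the heavy-strand transcript, and lower for mt-Nd5 and mt-Cytb, which lie near its end. mt-Atp8, a gene in the middle with no match, also had a lower share, 0.120% and 0.112% in KO and 0.133% and 0.140% in WT. Reads of mt-Cytb per 100 reads of mt-Nd1 were 136 and 126 in KO and 179 and 165 in WT (exact permutation p = 0.333); this ratio was chosen after the values were seen.

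Many nuclear genes that serve mitochondria were lower in KO. Of 86 tested nuclear-encoded subunits of the respiratory chain, 68 were lower and 0 higher in KO by edgeR, where 20.3% of all tested genes were lower and 11.6% higher. The median log2 fold change was -0.37 in this list, 0.05 over all tested genes and -0.18 over well-expressed ones; the same backgrounds apply to each list below. Uqcrq of complex III had 164 and 172 CPM in KO and 281 and 283 CPM in WT (edgeR, adjusted p = 3.89e-09). Cox7a2 of complex IV had 192 and 208 CPM in KO and 312 and 354 CPM in WT (edgeR, adjusted p = 2.47e-08). Cox8c and Cox7b2, known for expression in testis, were also lower. Cox8c had 212 and 184 CPM in KO and 342 and 334 CPM in WT, and Cox7b2 had 47.4 and 53.8 CPM in KO and 85.0 and 94.2 CPM in WT.

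Genes for proteins of the mitochondrial ribosome, which surround the mitochondrial rRNAs, fell at 53 of 77 tested genes and rose at 0, with a median log2 fold change of -0.31. Mrpl24 had 107 and 113 CPM in KO and 162 and 177 CPM in WT (edgeR, adjusted p = 1.22e-07). Mrpl39 had 167 and 150 CPM in KO and 231 and 237 CPM in WT (edgeR, adjusted p = 3.75e-07).

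Genes that make and handle mitochondrial RNA were counted in the same way. Of 20 genes of mitochondrial DNA transcription and replication, 9 were lower and 0 higher, with a median log2 fold change of -0.25. Polrmt, the mitochondrial RNA polymerase, had 35.9 and 41.4 CPM in KO and 50.7 and 51.3 CPM in WT (edgeR, adjusted p = 0.000617), and Polg, the DNA polymerase, had 65.1 and 68.9 CPM in KO and 86.2 and 85.3 CPM in WT (edgeR, adjusted p = 0.00025). Of 26 genes of RNA processing and modification, 6 were lower and 0 higher, near the 20.3% of all genes that were lower, and their median of -0.17 is near the -0.18 of well-expressed genes. Elac2, which cuts the ends of tRNAs free, had 41.8 and 43.9 CPM in KO and 57.7 and 60.7 CPM in WT (edgeR, adjusted p = 4.41e-05). Of 19 genes of RNA stability and decay, 12 were lower and 0 higher, with a median log2 fold change of -0.39. Dhx30, an RNA helicase, had 153 and 159 CPM in KO and 216 and 236 CPM in WT (edgeR, adjusted p = 6.21e-07), and Grsf1, a protein of mitochondrial RNA granules, had 115 and 107 CPM in KO and 148 and 148 CPM in WT (edgeR, adjusted p = 1.63e-05). Of 22 mitochondrial aminoacyl-tRNA synthetases, which load tRNAs, 6 were lower and 0 higher, with a median of -0.18, again near these backgrounds. Fars2 was among them, with 51.2 and 43.8 CPM in KO and 70.2 and 66.7 CPM in WT (edgeR, adjusted p = 1.70e-05). Germ cell markers fell beside these lists, as given above, and their part in the lists' change was not tested.

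Set against each other in a library, mitochondrial and nuclear genes of the same complexes stood at different ratios. The chrM mRNA reads were 4.45 and 3.25 times those of the nuclear respiratory chain genes in KO and 2.90 and 2.69 times in WT (exact permutation p = 0.333). The chrM rRNA reads were 1.62 and 2.05 times those of the mitochondrial ribosomal protein genes in KO and 1.20 and 1.10 times in WT (exact permutation p = 0.333). The groups did not overlap in either ratio; both were chosen after the data were seen. When libraries were scaled to the nuclear respiratory chain genes, 11 of 27 chrM genes were higher and 0 lower by edgeR, where 43.5% of all genes were higher and 4.12% lower. This scaling set the median log2 fold change of all genes at 0.43, and that of the 27 chrM genes was 0.45.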

How the data were processed

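RNA-seq libraries of postnatal day 17 testes (2 KO, 2 WT) were analysed from raw counts, made by the authors with featureCounts 1.6.4 on exons of GENCODE M18, on the gene's strand, per the file headers. No option for multi-mapping reads or for reads on several genes is recorded there, so such reads were left out. Per the submitters' processing notes, the tools cutadapt and HISAT2 and the build GRCm38.p5 were used; read length is not given in the sources used here. Per the labels' protocols, random and poly(T) primers were mixed for cDNA, which was strand-selected and depleted of targeted transcripts with AnyDeplete; the labels call the molecule polyA RNA.

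Counts were tested with edgeR 4.0.16 (R 4.3.3; quasi-likelihood, filterByExpr, TMM, genotype as the single term, Benjamini-Hochberg over all tested genes, threshold 0.05), with DESeq2 1.42.0 as an alternative, and checked on simulated data. Shares and ratios used unscaled counts and a two-sided exact permutation test over libraries. Windows of 50, 75 and 100 bases of chrM transcripts were searched in nuclear transcripts of GENCODE M21, whose 37 chrM positions are those of the files; levels per window of 75 and 100 bases were added after the data were seen. No genome was used. Upstream regions were counted by the authors over 3000 bases.

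Genes were named by rule: every chrM gene, Dis3, and from each nuclear list up to 4 called genes with the smallest adjusted p, or, of nuclear copies, up to 4 with most reads. Members and lists were chosen with earlier results of these data known. Replicates of a group differed by more than counting noise, with chi-square per degree of freedom of 5.08 in KO and 4.54 in WT over all genes and 621 in KO and 35.9 in WT over chrM genes. Of the other marker lists, 2 of 7 Leydig genes were higher and 2 lower, 1 of 6 peritubular myoid genes was higher and 1 lower, 2 of 5 endothelial and 3 of 3 tested fat cell genes were higher, 3 of 3 tested red blood cell genes were lower, and 0 of 5 striated muscle genes passed.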

Additional observations from a re-analysis of the deposited data

How the results depend on the processing

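With 2 libraries a group and KO libraries that disagree, calls on chrM genes depended on the processing. Against 0 higher in KO, 3 of 36 were higher with no filter on low counts (mt-Rnr2, mt-Nd1, mt-Nd6), where 1937 of 48489 genes of the whole table were. With at least 1 CPM in 2 libraries, 2 of 26 were higher (mt-Rnr1, mt-Nd1), where 3323 of 18399 genes were. With the replicate block 4 of 27 were higher (mt-Rnr2, mt-Nd1, mt-Atp6, mt-Nd6), where 3362 of 25076 genes were. Scaled to nuclear respiratory chain genes, 11 of 27 were higher, where 10916 of 25076 genes were. In all of these settings 0 chrM genes were lower, where 5668, 4259, 5469 and 1033 genes of the whole table were, in the order given. Whether the replicate numbers pair the libraries is not stated. The count of higher genes in the whole table, 2906, was 1081 with DESeq2 and 1937 with no filter, and 1324 to 2429 without 1 library. Without 1 library, chrM calls were 2 to 9 higher and 0 to 9 lower. Of 250 tested nuclear mitochondrial genes, 0 to 2 were then higher. Between 122 and 174 nuclear mitochondrial genes were lower across the alternatives in which they were counted, against 154. They were not counted with scaling to chrM mRNA reads or to nuclear respiratory chain genes. With these scalings 166 and 1033 genes of the whole table were lower, in the order given, against 5092. The difference in mRNA share, KO minus WT, was -0.0448 to 1.06 percentage points without 1 library, in rRNA per 100 mRNA -1.34 to 7.85, and in tRNA per 1000 mRNA -0.36 to 0.409, and -0.27 with reads per kilobase. The strand difference kept its direction in every alternative run, but leaving out 1 library could not reverse it, since the groups did not overlap. For mt-Nd6 to mt-Nd5 the direction was also kept, but no alternative run could reverse it. Gene length changes this ratio by a constant factor, both genes pass the read filter, and its groups did not overlap. Log2 fold changes of the other sign were as follows. With no filter: mt-Tl1 -0.041, mt-Tq -0.035, mt-Nd4l -0.010, mt-Nd4 -0.062. With at least 1 CPM in 2 libraries: mt-Ti 0.064, mt-Tm 0.021, mt-Tc 0.0097, mt-Co2 0.054, mt-Nd5 0.020, mt-Tp 0.023. With the replicate block: mt-Tl1 -0.0081, mt-Nd4 -0.0024. With DESeq2 and with median-of-ratios scaling, mt-Nd4 was -0.011 in both. Scaled to chrM mRNA reads: mt-Tl1 -0.057, mt-Nd4l -0.021, mt-Nd4 -0.048. Scaled to nuclear respiratory chain genes: mt-Ti 0.37, mt-Tm 0.33, mt-Tc 0.31, mt-Co2 0.36, mt-Atp8 0.21, mt-Nd3 0.22, mt-Nd5 0.33, mt-Cytb 0.28, mt-Tp 0.33. Without 1 library, log2 fold changes spanned 0: mt-Atp6 -0.019 to 0.31, mt-Atp8 -0.51 to 0.048, mt-Co1 -0.12 to 0.25, mt-Co2 -0.34 to 0.19, mt-Co3 -0.033 to 0.26, mt-Cytb -0.43 to 0.095, mt-Nd2 -0.16 to 0.34, mt-Nd4 -0.20 to 0.12, mt-Nd4l -0.35 to 0.31, mt-Nd5 -0.36 to 0.14, mt-Tc -0.61 to 0.27, mt-Te -0.94 to 0.61, mt-Ti -0.23 to 0.12, mt-Tl1 -0.43 to 0.32, mt-Tl2 -0.36 to 0.78, mt-Tm -0.16 to 0.0090, mt-Tp -0.20 to 0.048, mt-Tq -0.42 to 0.31 and mt-Tr -0.059 to 0.15. They kept their sign for mt-Tw (0.064 to 0.85) and mt-Nd3 (-0.31 to -0.079). The rRNA share difference was 0.0804 to 0.242 points and 0.0518 from mt-Rnr1 alone, and the tRNA one 0.000929 to 0.00185. Without 1 library, differences in share of mRNA reads spanned 0 for mt-Co2 (-0.0363 to 0.00926 points), mt-Nd3 (-0.00615 to 0.00196), mt-Nd4 (-0.33 to 0.0578) and mt-Nd4l (-0.013 to 0.00854). The cause of these changes was not tested. Alternatives restricted to genes or windows without nuclear matches were chosen after seeing the data.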
